A study of Homo sapiens with 12 samples.

Results

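The response of THP-1 cells to CO2 was measured as an average over stimulation states: the mean of the 2 groups held at 10% CO2 minus the mean of the 2 groups held at 5% CO2, each pair holding 1 group with and 1 without lipopolysaccharide (LPS). Members were chosen by the sample titles, all 12 of the 12 libraries enter, and all 57500 gene identifiers of the count tables were eligible. Of these, 16402 had enough counts to be tested. THP-1 is an established human line grown from a monocytic leukaemia, and every library came from cells transduced with lentiviral particles carrying a non-target shRNA, so the controls carry it too. Cells sat in a gas chamber at 37 °C for 4 h in all, in a buffered culture medium (DMEM with serum) at 5% or 10% CO2. The LPS groups received 2.5 µg/ml LPS for the last 2 h. The 4 groups, each with 3 libraries of poly(A)-selected RNA, are named by their gas and stimulus: 5% CO2 and 10% CO2 for resting cells, and for stimulated cells 5% CO2 with LPS and 10% CO2 with LPS. Nothing in the labels says whether the 3 libraries of a group came from separate cultures, so the p-values measure the spread between these libraries, which may be technical. The model is 1 cell line in a leukaemic, proliferating state, and not a primary monocyte.

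CO2 diffuses across membranes and is hydrated by carbonic anhydrases to bicarbonate and a proton, so a rise in CO2 reaches the inside of a cell even where the medium is buffered. Raised CO2, or hypercapnia, is known in monocytes and macrophages for altering parts of the response to LPS, which acts through Toll-like receptor 4 and the transcription factor NF-kappaB. Protein folding, ribosome assembly, amino acid supply and mitochondrial respiration are among the processes whose genes monocytic cells adjust when their surroundings change. A change averaged over LPS states weighs resting and stimulated cells equally: it can be shared by both or carried by either of them, and it can hide genes that move in opposite directions in the 2 states.

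The libraries held between 17132910 and 22151327 counts, and 3 counts, the least taken as detected, corresponded to 0.135 to 0.175 CPM (the count of a gene scaled to a common library size). Replicates differed by more than sampling noise in every group (chi-square per degree of freedom between 8.93 and 29.4), the highest being 10% CO2 replicate 1 against replicate 3. In 10% CO2 replicate 3, GC-rich genes were high relative to GC-poor genes, by 0.44 on a log2 scale centred on all libraries, against −0.20 and 0.08 in the other 2 libraries of its group. The myeloid regulators SPI1 (276 to 495 CPM) and CEBPA (81.6 to 927 CPM) were abundant in all libraries. So were the granule protease genes ELANE (930 to 1350 CPM) and PRTN3 (451 to 972 CPM), but MPO, another granule gene, was low (2.95 to 5.81 CPM). Monocyte and myeloid markers were mixed: CD14 (4.39 to 16.4 CPM) and CD68 (1.37 to 1.94 CPM) were low. Higher were CD33 (36.4 to 67.9 CPM), ITGAM (24.6 to 58.8 CPM), CSF1R (38.4 to 141 CPM) and LYZ (72.0 to 113 CPM). TYROBP (109 to 149 CPM) and FCER1G (105 to 200 CPM) were higher too. Of 49 markers of other cell types in 6 lists 16 passed the filter, and 1 was called: MUC1, of epithelial cells, fell by 0.58 on the log2 scale. Their summed levels ranged from 11.9 to 17.3 CPM for T and NK cells, 13.2 to 24.9 for B cells, 10.2 to 24.8 for epithelial cells, 2.65 to 5.28 for fibroblasts and 2.98 to 6.46 for endothelial cells. Within an LPS state the sums at 5% and 10% CO2 overlapped, except those of epithelial cells with LPS (18.9 to 24.8 against 14.0 to 16.0 CPM) and of fibroblasts without LPS (3.92 to 4.44 against 2.65 to 3.72 CPM), whose part in the results was not tested. Erythroid markers summed to 0.217 CPM or less, with HBA1, HBD, GYPB and AHSP at 0 counts in every library.

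At 10% CO2, 16 of 30 heat shock chaperone genes, 26 of 40 ribosome biogenesis factors, 11 of 20 cytosolic aminoacyl-tRNA synthetases, 16 of 39 integrated stress response genes and 9 of 13 mRNAs of the mitochondrial genome rose relative to 5% CO2. In the other direction, 12 of 42 immediate early genes, 8 of 30 sterol genes and 8 of 30 genes of cAMP signalling fell. In edgeR's quasi-likelihood test with Benjamini-Hochberg adjustment, 2748 of 16402 genes (16.8%) had an adjusted p below 0.05 and are termed called. Of these, 1322 (8.06% of the genes tested) were higher at 10% CO2 and 1426 (8.69%) were lower. The changes were small: 2284 of the called genes changed by less than 1.5-fold, the median change was 0.33 on the log2 scale among the higher genes and −0.37 among the lower, and 94 genes (0.573% of those tested) were called with at least a 2-fold change, 32 of them higher and 62 lower. The count of calls fell to 1664 when 10% CO2 replicate 2 was left out, to 1687 when 10% CO2 with LPS replicate 2 was, and to 1801 when 5% CO2 with LPS replicate 1 was.

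A call in the average selects genes whose changes in the 2 stimulation states add up, so a shared sign among called genes follows from the choice and is no result. The absolute change was larger with LPS in 1883 of the 2748 called genes. In 1367 called genes, 718 higher and 649 lower, the 3 libraries at 10% CO2 lay wholly to 1 side of the 3 libraries at 5% CO2 both with and without LPS. Over all genes tested, such a separation held for 4.96% in the higher and 4.45% in the lower direction. Each state alone called fewer genes: 240 (1.46%) without LPS and 1435 (8.75%) with LPS. The average called 1416 genes that neither state called alone. The median standard error of a log2 change was 0.10 for the average, 0.14 without LPS and 0.14 with LPS. Across genes, which are not independent replicates, the changes in the 2 states, which share no library, had a Pearson r of 0.39 over all 16402 genes and 0.63 over the 10811 genes whose mean was 5 CPM or more.

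**Figure D1:**
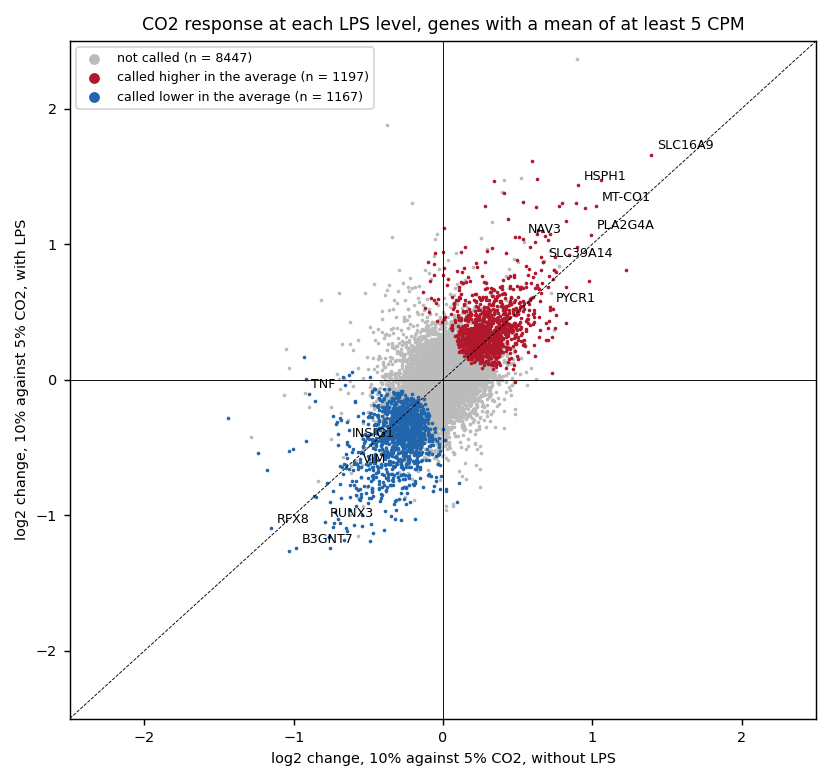
Log2 change from 5% to 10% CO2 without LPS (x axis) against that with LPS (y axis), 1 point per gene whose mean was 5 CPM or more, and a dashed line where both are equal. The 1197 genes called higher in the average and the 1167 called lower lie for the most part in the quadrants where both states share a sign, as selection on the average favours, and the 8447 genes not called surround the origin.

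The difference between the 2 states was called in 4 genes (0.0244% of those tested, against 989 with an unadjusted p under 0.05), and none of the 4 was called in the average because their changes cancelled. These were CD44, a receptor for hyaluronan, HIVEP2, a zinc finger transcription factor, PDGFA, a growth factor chain, and STARD4, a cholesterol carrier, named here after their values were seen. HIVEP2 measured 40.3, 41.5 and 43.4 CPM at 5% CO2 and 33.2, 27.2 and 30.4 CPM at 10% CO2 without LPS, but 121, 102 and 139 CPM at 5% CO2 and 198, 195 and 198 CPM at 10% CO2 with LPS. All 3 libraries at 10% CO2 were thus below the 5% CO2 libraries in resting cells and above them in stimulated cells, a log2 change of −0.46 and 0.71 in turn (adjusted p of the difference 0.00255).

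The smallest adjusted p-value belonged to SLC39A14, which encodes a zinc and iron importer of the plasma membrane (chromosome 8, 22367249 to 22434129, plus strand, GRCh38). Its level was 52.4, 47.9 and 48.8 CPM at 5% CO2 and 85.7, 82.5 and 68.8 CPM at 10% CO2, and with LPS 59.7, 57.8 and 60.2 CPM at 5% CO2 and 108, 110 and 106 CPM at 10% CO2. Every library at 10% CO2 exceeded every library at 5% CO2, whatever its LPS state, and the averaged change was 0.77 ± 0.06 (log2, SE), or 1.70-fold (adjusted p = 4.49e-06). NAV3, a neuron navigator protein, differed in level between LPS states far more than between CO2 levels: 37.5, 37.0 and 40.9 CPM against 62.5, 57.3 and 47.3 CPM without LPS, and 236, 198 and 267 CPM against 508, 514 and 419 CPM with LPS. The groups did not overlap within either state, and the averaged log2 change was 0.79 ± 0.08 (SE). DYNLL1, a dynein light chain, read 143 to 152 CPM at 5% CO2 and 217 to 243 CPM at 10% CO2 without LPS, and 151 to 197 and 233 to 284 CPM with LPS. DPH5, of diphthamide synthesis on elongation factor 2, rose by 1.78-fold, and RPE, an epimerase of the pentose phosphate pathway, by 1.72-fold, both without overlap in either state.

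Among the genes that fell, VIM, encoding the intermediate filament vimentin (chromosome 10, 17228259 to 17237593, plus strand), had the smallest adjusted p-value. It measured 143, 149 and 131 CPM at 5% CO2 and 93.9, 91.7 and 98.7 CPM at 10% CO2, and with LPS 221, 217 and 202 CPM against 130, 121 and 155 CPM. The 10% CO2 libraries were the lower 3 in each state, and the averaged fall was 1.53-fold (log2 −0.61 ± 0.06, SE; adjusted p = 7.98e-05). SAP130, a subunit of a Sin3 histone deacetylase complex, measured 49.0 to 54.0 CPM at 5% CO2 and 33.0 to 35.9 CPM at 10% CO2 without LPS, and 37.3 to 51.4 CPM and 22.8 to 25.8 CPM with LPS, a fall of 1.64-fold. CYTH2, an exchange factor for ARF GTPases, fell by 1.62-fold, NARF, a nuclear partner of prelamin A, by 1.56-fold and PGPEP1, a peptidase, by 1.56-fold. None of these 4 genes had overlapping libraries in either state. RFX8, of the RFX family of transcription factors, fell by 2.18-fold, from 12.9 to 14.8 CPM to 4.69 to 7.64 CPM without LPS and from 8.90 to 10.2 CPM to 3.47 to 5.73 CPM with LPS.

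The largest rise, counting called genes of 5 CPM or more, was in SLC16A9, a membrane carrier of the monocarboxylate transporter family known for carnitine. It measured 0.949, 1.54 and 1.86 CPM at 5% CO2 and 3.78, 4.87 and 2.83 CPM at 10% CO2, and with LPS 3.01, 3.67 and 6.89 CPM against 11.2, 17.9 and 14.0 CPM. The libraries did not overlap within either state and the rise was 2.88-fold (log2 1.53 ± 0.23, SE; adjusted p = 0.000747). PLA2G4A, the cytosolic phospholipase A2 that releases arachidonic acid, rose by 2.04-fold and lay between 3.69 and 7.92 CPM over the 6 libraries at 5% CO2 and between 8.65 and 17.5 CPM over the 6 at 10% CO2. CNKSR3, a scaffold protein, rose by 2.08-fold, mostly visible with LPS (23.8, 23.1 and 55.7 CPM against 75, 116 and 95.3 CPM). Its call was lost without 5% CO2 replicate 1 or 2, 10% CO2 replicate 2 or 10% CO2 with LPS replicate 2 (adjusted p up to 0.0647). RASGRP1, an exchange factor for Ras, and TNIP3, an inhibitor of NF-kappaB signalling, were close to the floor without LPS (0.110 to 0.811 CPM and 0.0551 to 0.355 CPM), and their calls were lost without 10 and 4 of the 12 libraries in turn (adjusted p up to 0.138 and 0.0881). For TNIP3 these 4 were 5% CO2 replicates 2 and 3 and 10% CO2 replicates 1 and 2, and for RASGRP1 the call was kept without 5% CO2 with LPS replicate 3 or 10% CO2 with LPS replicate 1 alone.

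The largest falls, after that of RFX8, were in a mixed set of enzymes, receptors and regulators. B3GNT7, a glycosyltransferase of keratan sulfate synthesis, measured 30.2, 32.9 and 21.9 CPM at 5% CO2 and 13.8, 13.6 and 15.4 CPM at 10% CO2, and with LPS 10.7, 11.1 and 8.21 CPM against 3.90, 2.45 and 6.06 CPM, a fall of 2.17-fold. ADCY4, an adenylyl cyclase, fell by 2.00-fold, and its 6 libraries at 5% CO2 (8.12 to 13.9 CPM) lay above the 6 at 10% CO2 (2.21 to 7.20 CPM). RUNX3, a Runt transcription factor of haematopoietic cells, fell by 1.90-fold from 124 to 216 CPM to 82.9 to 111 CPM without LPS and from 60.0 to 110 CPM to 35.2 to 47.8 CPM with LPS. SLC6A6, the taurine transporter, fell by 1.90-fold, and CXCR3, a chemokine receptor, by 1.82-fold. TEAD3, a partner of YAP in transcription, fell by 1.83-fold, and the libraries of all these genes were separated in both states.

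**Figure D2:**
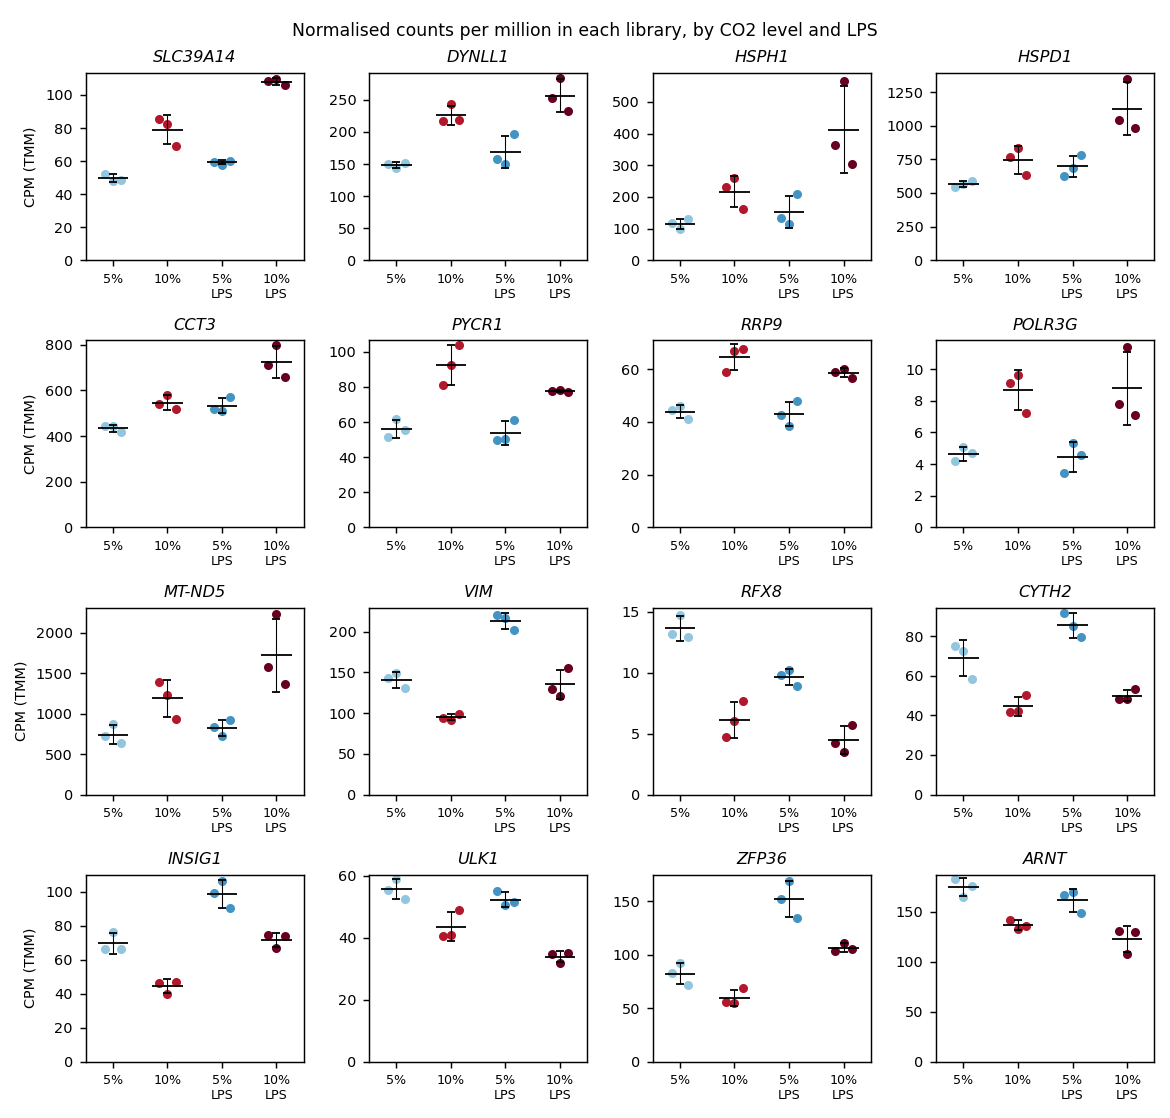
CPM of 16 genes in each of the 12 libraries, with 1 panel per gene, a y axis that starts at 0, and 1 point per library in the 4 groups (resting cells at either CO2 level, then stimulated cells at either level); horizontal bars mark group means and vertical bars the SD. SLC39A14 stands near 50 to 60 CPM at 5% CO2 and between 68.8 and 110 CPM at 10% CO2, and VIM moves the other way in both states.

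Chaperones of the cytosol fold nascent and damaged clients, and many of their genes are under heat shock factor HSF1, which binds repeats of the pentamer nGAAn in promoters. Of 30 heat shock chaperone genes tested, 16 rose and none fell, beside 8.06% higher and 8.69% lower over all genes, and the median log2 change was 0.37 (0.29 without LPS, 0.45 with LPS) against −0.01 over all genes. Between 14 and 22 of them were called when any 1 library was left out, the most without 10% CO2 replicate 3. HSPH1, the HSP110 nucleotide exchange factor of HSP70, had the largest rise. It measured 119, 98.2 and 130 CPM at 5% CO2 and 230, 258 and 162 CPM at 10% CO2, and with LPS 133, 113 and 211 CPM against 365, 567 and 304 CPM. The groups were separated in both states, replicate 3 was the lowest of the 10% CO2 libraries in both, and the rise was 2.25-fold (log2 1.17 ± 0.22, SE; adjusted p = 0.00779). CHORDC1, a co-chaperone of HSP90, rose by 2.07-fold, with 1 library at 10% CO2 (replicate 3, 28 CPM) just under 1 at 5% CO2 (replicate 3, 28.7 CPM). HSPA4L, another HSP110 protein, rose by 1.93-fold, FKBP4, an HSP90 partner of steroid receptors, by 1.70-fold, and HSPA8, the constitutive HSP70, by 1.63-fold. AHSA1, which activates the ATPase of HSP90, changed by 0.70 ± 0.10 and DNAJA1, a J-domain partner of HSP70, by 0.68 ± 0.12 (log2, SE). In mitochondria, the chaperonin pair HSPD1 and HSPE1, which share a bidirectional promoter and lie head to head on chromosome 2, rose by 1.45-fold and 1.39-fold. HSPD1 measured 545, 566 and 590 CPM at 5% CO2 and 768, 832 and 631 CPM at 10% CO2 without LPS.

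The rise was uneven within the family. HSP90AA1, the inducible cytosolic HSP90, rose by 1.42-fold (log2 0.50 ± 0.11, SE; adjusted p = 0.0117), from 1076 to 1178 CPM to 1170 to 1610 CPM without LPS, where replicate 3 at 10% CO2 overlapped the 5% CO2 libraries, and from 1433 to 1778 CPM to 1965 to 3111 CPM with LPS. HSP90AB1, its constitutive counterpart, did not pass the test: 1892 to 2060 CPM against 1726 to 2129 CPM without LPS and 2475 to 2572 CPM against 2605 to 3287 CPM with LPS (log2 0.10 ± 0.06, SE; adjusted p = 0.293). DNAJB6 (0.18 ± 0.07, adjusted p = 0.0643), DNAJB1 (0.37 ± 0.12, adjusted p = 0.0505) and HSPA1A (0.51 ± 0.16, adjusted p = 0.0501) were not called. HSPA1A and its near-identical copy HSPA1B can exchange reads, so their levels are uncertain. HSF1 itself measured 131 to 181 CPM in all 12 libraries and was not called (−0.11 ± 0.06, adjusted p = 0.239). Of 20 genes tested for chaperones and stress factors of the endoplasmic reticulum none was called higher (3 were after a correction for GC content). A share of 10%, close to the 8.69% of all genes, was called lower. These 2 genes were CALR, encoding calreticulin (−0.23 ± 0.05), and SYVN1, a ubiquitin ligase of protein disposal (−0.35 ± 0.07). HSPA5, the main HSP70 of that compartment, changed by −0.11 ± 0.05 (adjusted p = 0.163). SERPINH1, a collagen chaperone of the same compartment, was counted in the heat shock list and was called higher.

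Sequences before the RefSeq start of 4 genes of the list that hold a heat shock element are given 5′ to 3′ in gene orientation. Bases that belong to exons are left out, and matches to the element are in capitals. CHORDC1 and HSP90AA1 were called higher and DNAJB6 and HSP90AB1 were not. The stretches are chr11:90223078-90223299 (minus strand), chr14:102087045-102087294 (minus), chr7:157336774-157336965 (plus) and chr6:44247693-44247865 (plus) of GRCh38.p14, in that order.
CHORDC1: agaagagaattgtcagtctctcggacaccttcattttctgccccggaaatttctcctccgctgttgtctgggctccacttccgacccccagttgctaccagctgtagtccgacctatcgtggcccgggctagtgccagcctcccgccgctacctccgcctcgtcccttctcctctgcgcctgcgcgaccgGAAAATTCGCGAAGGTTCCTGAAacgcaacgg
HSP90AA1: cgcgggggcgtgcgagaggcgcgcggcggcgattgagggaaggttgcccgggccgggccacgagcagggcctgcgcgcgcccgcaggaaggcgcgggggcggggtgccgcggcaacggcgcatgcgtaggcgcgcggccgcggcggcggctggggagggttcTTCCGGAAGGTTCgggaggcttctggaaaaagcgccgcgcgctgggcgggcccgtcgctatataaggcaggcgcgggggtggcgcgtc
DNAJB6: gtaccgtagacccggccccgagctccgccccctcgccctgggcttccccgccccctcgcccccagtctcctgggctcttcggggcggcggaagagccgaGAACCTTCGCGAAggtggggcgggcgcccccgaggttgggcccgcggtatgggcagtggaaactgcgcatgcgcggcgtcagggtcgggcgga
HSP90AB1: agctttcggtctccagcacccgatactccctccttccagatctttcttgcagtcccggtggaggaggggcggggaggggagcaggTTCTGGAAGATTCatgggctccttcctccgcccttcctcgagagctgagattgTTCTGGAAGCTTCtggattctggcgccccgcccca
CHORDC1 holds 3 overlapping matches between 60 and 38 bases before the start, HSP90AA1 holds 1 at 88 to 76 bases, DNAJB6 holds 1 at 131 to 119 bases and HSP90AB1 holds 2 between 165 and 100 bases. The element searched was GAANNTTCNNGAA or TTCNNGAANNTTC on either strand of the 250 bases before each start, in 16616 windows of 11516 genes tested. It occurred in 51 windows (0.307%), in 11 of 1420 windows of genes called higher (0.775%) and in 3 of 1658 windows of genes called lower (0.181%). Of the heat shock list, 7 of 27 genes with a window held it, of which HSPA8, HSP90AA1, CHORDC1, HSPD1 and SERPINH1 were called higher and DNAJB6 and HSP90AB1 were not. A match describes these letters only, and here the letters stood before genes that were called and before genes that were not.

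**Figure D3:**
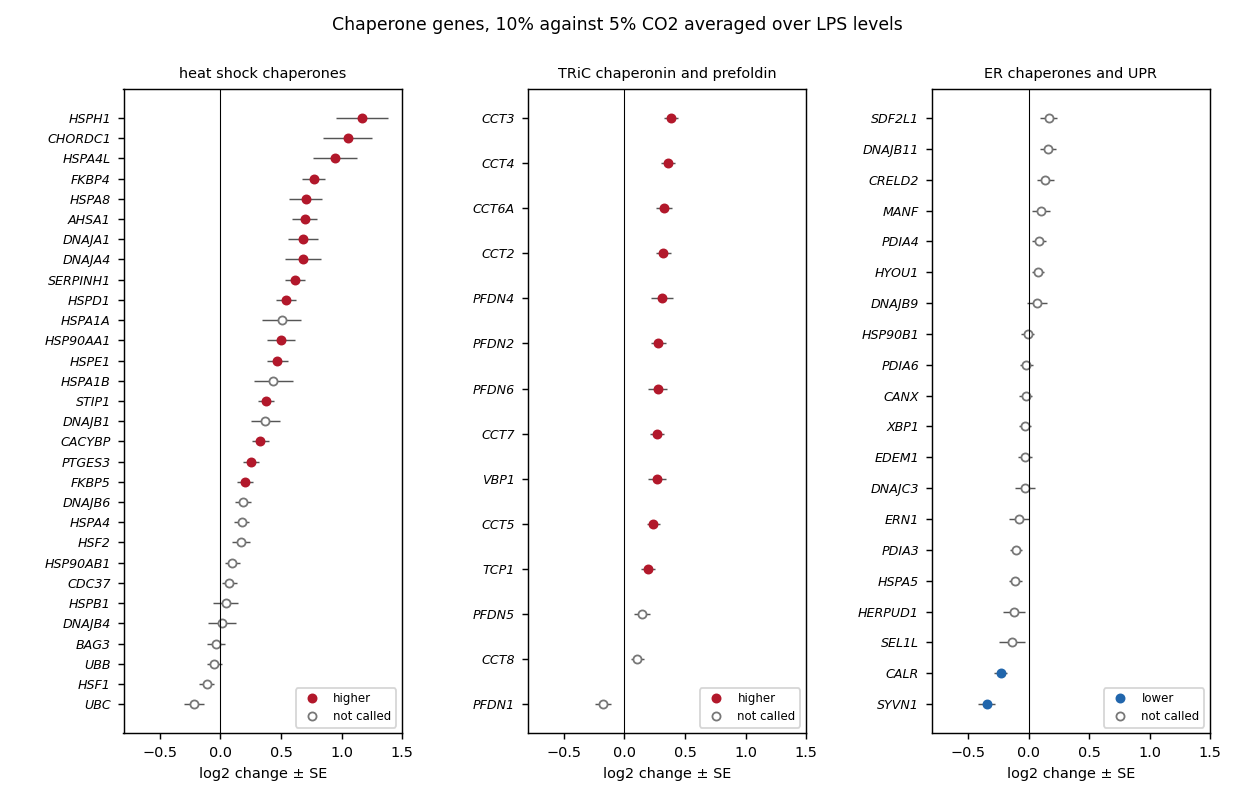
Log2 change from 5% to 10% CO2 with its standard error for each gene of the heat shock, chaperonin and endoplasmic reticulum lists, with separate markers for called genes and genes not called. HSPH1 (1.17) and CHORDC1 (1.05) lead the first list, the chaperonin subunits lie between 0 and 0.4 except PFDN1 at −0.18, and the endoplasmic reticulum list is centred near 0.

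The chaperonin TRiC, a ring of CCT subunits that folds actin and tubulin, and its partner prefoldin rose as a group. Of 14 genes tested 11 were called higher (78.6%, beside 8.06% of all genes) and none lower (beside 8.69%), with a median log2 change of 0.27. CCT3 measured 445, 442 and 416 CPM at 5% CO2 and 538, 581 and 519 CPM at 10% CO2, and with LPS 518, 510 and 572 CPM against 713, 800 and 658 CPM. All 10% CO2 libraries were above those at 5% CO2 in the same state, by 1.31-fold on average. CCT8 (0.11 ± 0.05) and PFDN1 (−0.18 ± 0.07) were among the 3 not called. The count fell from 11 to 7 without 5% CO2 with LPS replicate 1 or without 10% CO2 replicate 2.

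Genes for ribosome assembly rose together by small amounts. Ribosome biogenesis factors process and fold the precursor of ribosomal RNA in the nucleolus, and all 40 genes of the list had a positive change. Of these 26 were called higher (65%, beside 8.06% of all genes) and none lower (beside 8.69%), with a median log2 change of 0.24. RRP9, a component of the U3 small nucleolar particle, read 44.5, 45.9 and 41.1 CPM at 5% CO2 and 59.1, 67.1 and 67.7 CPM at 10% CO2, and with LPS 42.7, 38.5 and 47.9 CPM against 59.1, 60.1 and 56.8 CPM. Its 6 libraries at 10% CO2 were above all 6 at 5% CO2, by 1.42-fold (adjusted p = 0.000209). DDX10, an RNA helicase, changed by 0.57 ± 0.08, WDR75, of the small subunit processome, by 0.42 ± 0.07, BOP1, of large subunit assembly, by 0.42 ± 0.07 and NOP56, of the box C/D particles, by 0.38 ± 0.06 (log2, SE). Without 10% CO2 replicate 2 the count of the list was 17.

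Genes of the polymerases that transcribe ribosomal and transfer RNA were called higher more often than all genes, and lower about as often. Of 33 genes tested 11 rose (33.3%, beside 8.06% of all genes) and 3 fell (9.09%, beside 8.69%). Without 5% CO2 with LPS replicate 1, 7 rose. POLR3G, an RNA polymerase III subunit of proliferating cells, measured 4.20, 5.07 and 4.69 CPM at 5% CO2 and 9.11, 9.63 and 7.24 CPM at 10% CO2, and with LPS 3.43, 5.32 and 4.58 CPM against 7.80, 11.4 and 7.11 CPM. The groups did not overlap and the rise was 1.91-fold (adjusted p = 0.000408). POLR1A and POLR1B, the large subunits of RNA polymerase I, changed by 0.53 ± 0.08 and 0.42 ± 0.07, and MAF1, the repressor of RNA polymerase III, fell by 0.34 ± 0.06 on the log2 scale. Cytosolic ribosomal protein genes, the products these steps combine with RNA, were called higher in 6 of 66 (9.09%, beside 8.06% of all genes). That count was 13 after a correction for GC content, 2 without 5% CO2 replicate 2 or 3, 5% CO2 with LPS replicate 1 or replicate 2 of either 10% CO2 group, and 3 without 5% CO2 with LPS replicate 2 or 10% CO2 with LPS replicate 1. MYC, a regulator of many ribosome assembly genes, was not called: 294, 311 and 329 CPM at 5% CO2 and 295, 338 and 353 CPM at 10% CO2 without LPS, and 52.3, 39.4 and 48.2 CPM against 37.0, 32.8 and 35.0 CPM with LPS (−0.17 ± 0.07, adjusted p = 0.108).

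Of 39 genes tested of the integrated stress response list 16 rose (41%, beside 8.06% of all genes) and none fell (beside 8.69%). The median log2 change of the list was 0.12. This response, in which phosphorylated eIF2 raises translation of the transcription factor ATF4, is known for inducing enzymes that make serine, proline and asparagine. PYCR1, the last enzyme of proline synthesis, measured 51.6, 61.8 and 55.3 CPM at 5% CO2 and 81, 92.5 and 104 CPM at 10% CO2, and with LPS 49.5, 50.2 and 61.3 CPM against 77.8, 78.3 and 77.1 CPM. The lowest library at 10% CO2 exceeded the highest at 5% CO2, and the rise was 1.54-fold (log2 0.63 ± 0.08, SE; adjusted p = 0.000129). All 3 enzymes of serine synthesis from glycolysis rose: PHGDH by 1.26-fold, PSAT1 by 1.43-fold and PSPH by 0.53 ± 0.07 on the log2 scale. PSAT1 lay between 176 and 230 CPM over the 6 libraries at 5% CO2 and between 265 and 304 CPM over the 6 at 10% CO2. MTHFD2, of mitochondrial folate metabolism, rose by 1.24-fold and ASNS, asparagine synthetase, by 1.28-fold. CTH, of cysteine synthesis, changed by 0.53 ± 0.13, and SLC3A2, the heavy chain of amino acid exchangers, by 0.27 ± 0.06 (log2, SE).

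ATF4 mRNA stood at 592 to 682 CPM in all 6 libraries without LPS and at 834 to 919 CPM in all 6 with LPS, with the CO2 groups overlapping in both states (log2 0.03 ± 0.05, adjusted p = 0.761). DDIT3, encoding CHOP, was not called either (−0.14 ± 0.09, adjusted p = 0.306). ATF4 is controlled chiefly in translation, which poly(A) RNA counts do not measure. Of the 20 cytosolic aminoacyl-tRNA synthetases, 11 rose (55%, beside 8.06% of all genes) and 1 fell (5%, beside 8.69%), with a median log2 change of 0.19. MARS1 changed by 0.30 ± 0.06 and QARS1, the gene that fell, by −0.21 ± 0.05 (log2, SE). XPOT, the exporter of transfer RNA from the nucleus, changed by 0.31 ± 0.06. The letters TGATGNAA, an element of C/EBP and ATF factors, stood in 6 of 52 windows of the integrated stress response list (11.5%). Of these, 3 stood among the 20 windows of members called higher, and the others before members not called. The letters stood in 2.46% of windows of all genes called higher, in 1.39% of those called lower and in 1.73% of all windows.

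The mRNAs encoded by mitochondrial DNA, which specify core subunits of the respiratory complexes and of ATP synthase, had the largest median change of any list. All 13 had a positive change, 9 were called higher (69.2%, beside 8.06% of all genes) and the median log2 change was 0.87 (0.68 without LPS, 1.06 with LPS). MT-ND5, a subunit of complex I (mitochondrial genome, 12337 to 14148), measured 724, 867 and 633 CPM at 5% CO2 and 1393, 1233 and 938 CPM at 10% CO2, and with LPS 834, 721 and 920 CPM against 1571, 2230 and 1363 CPM. The groups were separated in both states and the rise was 1.83-fold (log2 0.87 ± 0.14, SE; adjusted p = 0.00302). MT-CO1, of cytochrome c oxidase, rose by 2.22-fold, from 2439 to 3441 CPM to 4061 to 7010 CPM without LPS and from 2556 to 3578 CPM to 5049 to 10660 CPM with LPS. MT-ND4 rose by 2.16-fold and MT-CO3 changed by 1.00 ± 0.20 (log2, SE). MT-ND4 overlaps MT-ND4L, MT-ATP6 overlaps MT-ATP8, and MT-ND6 lies on the other strand in a gene-dense molecule, so reads can be shared between these neighbours. MT-CYB (0.69 ± 0.23, adjusted p = 0.0773), MT-ND1 (0.68, adjusted p = 0.0627) and MT-ND2 (0.56, adjusted p = 0.0561) were not called, and MT-ND3 was nearly level (287 to 371 CPM against 312 to 362 CPM without LPS; 0.11 ± 0.08). Leaving out 1 library gave between 6 and 12 calls: that of MT-ATP6 was lost without any of 10 libraries, that of MT-ATP8 without any of 7, and that of MT-CO2 without 5% CO2 replicate 1 or 5% CO2 with LPS replicate 1 (adjusted p up to 0.0515).

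The share of all counts that fell on the mitochondrial genome was 1.45%, 1.96% and 1.31% at 5% CO2 and 3.05%, 2.91% and 2.01% at 10% CO2. With LPS it was 1.60%, 1.28% and 1.78% at 5% CO2 and 2.92%, 4.15% and 2.28% at 10% CO2. All 6 libraries at 10% CO2 had a larger share than any at 5% CO2, with a mean difference of 1.32 percentage points. An exact two-sided permutation test of CO2 labels within LPS state gave p = 0.005, the smallest that its 400 arrangements allow. Replicate 3 had the lowest share in both 10% CO2 groups, as it had the lowest HSPH1 level. A larger share of mitochondrial reads can move with RNA quality, whose part in this difference was not tested.

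Nuclear genes that serve the mitochondrial genome rose by less. Of 31 factors for its transcription and RNA handling 10 rose (32.3%, beside 8.06% of all genes) and none fell (beside 8.69%), with a median log2 change of 0.17. Of 77 mitochondrial ribosomal protein genes 25 rose (32.5%) and none fell (median 0.16). MTERF3, a regulator of mitochondrial transcription and ribosome assembly, measured 19.2, 18 and 20.2 CPM at 5% CO2 and 26.6, 29.3 and 27.6 CPM at 10% CO2, and with LPS 16.4, 13.7 and 20 CPM against 24.8, 25.6 and 22.8 CPM. The 6 libraries at 10% CO2 were above all 6 at 5% CO2, by 1.46-fold (adjusted p = 0.000585). TFAM, which packages the mitochondrial genome and helps start its transcription, changed by 0.28 ± 0.07 (log2, SE). TFB1M, a ribosomal RNA methyltransferase of mitochondria, changed by 0.47 ± 0.11 and POLRMT, the mitochondrial RNA polymerase, by 0.26 ± 0.07. MRPL33, of the large mitochondrial ribosomal subunit, lay between 21.3 and 24.8 CPM in the 6 libraries at 5% CO2 and between 30.3 and 32.6 CPM in the 6 at 10% CO2. Nuclear subunits of the respiratory chain were called higher in 14 of 71 (19.7%, beside 8.06% of all genes) and lower in none, with a median of 0.12. That count was 2 when 10% CO2 replicate 2 or 10% CO2 with LPS replicate 2 was left out, 3 when 5% CO2 with LPS replicate 1 was left out, and 4, 7 and 9 when 5% CO2 replicates 1, 2 and 3 were left out in turn. Omitting 5% CO2 with LPS replicate 2 gave 6, and omitting 10% CO2 with LPS replicate 1 gave 8.

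Carbon metabolism and acid-base genes were called in both directions. Of 36 tested genes for carbonic anhydrases and carriers of bicarbonate, protons and monocarboxylates 3 rose and 2 fell, within a few points of the shares over all genes. Beside SLC16A9, these 3 were SLC4A7, an importer of sodium and bicarbonate, and SLC16A1, the lactate carrier MCT1. SLC4A7 read 10.2, 7.55 and 12.5 CPM at 5% CO2 and 17.4, 15.8 and 12.5 CPM at 10% CO2, and with LPS 9.97, 11.8 and 15 CPM against 20.2, 28.6 and 23.8 CPM. The libraries touched without LPS and were separated with LPS, and the rise was 1.72-fold (adjusted p = 0.00138). CA2, the abundant cytosolic carbonic anhydrase, was not called (0.16 ± 0.06, adjusted p = 0.0511). HK2, a hexokinase, rose (0.54 ± 0.10, log2, SE), while GPI, which acts on its product, fell by 0.28 on the log2 scale.

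Genes of the hypoxia response were called lower in 8 of 28 (28.6%, beside 8.69% of all genes) and higher in 2 (7.14%, beside 8.06%). Their median log2 change was −0.11. ARNT, the shared partner of hypoxia-inducible factors, measured 182, 164 and 176 CPM at 5% CO2 and 142, 133 and 135 CPM at 10% CO2. With LPS it measured 167, 169 and 148 CPM against 131, 108 and 129 CPM. Its 6 libraries at 10% CO2 were below all 6 at 5% CO2 (log2 −0.37 ± 0.06, SE; adjusted p = 0.000814). NDRG1, a stress-responsive protein, changed by −0.60 ± 0.14, ZNF395, a transcription factor, by −0.66 ± 0.13 and BNIP3L, a receptor of mitophagy, by −0.47 ± 0.09, while HIF1A itself was not called (0.08 ± 0.06). The count of 8 became 5 without 5% CO2 with LPS replicate 2, 10% CO2 replicate 2 or 10% CO2 with LPS replicate 2.

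Genes of sterol synthesis and uptake, which the transcription factor SREBP2 induces when membrane sterol is low, had a median log2 change of −0.12. Of 30 tested 8 fell (26.7%, beside 8.69% of all genes) and 2 rose (6.67%, beside 8.06%). INSIG1, which retains the SREBP escort in the endoplasmic reticulum and is itself a target, measured 66.2, 76.6 and 66.2 CPM at 5% CO2 and 46.5, 39.9 and 47.1 CPM at 10% CO2, and with LPS 99.2, 106 and 90.4 CPM against 74.4, 66.8 and 73.8 CPM. The 10% CO2 libraries were the lowest 3 in each state, with a fall of 1.47-fold (adjusted p = 0.000138). DHCR7, the last step of cholesterol synthesis, changed by −0.56 ± 0.09, IDI1, of isoprenoid synthesis, by −0.45 ± 0.07 and HMGCS1, an early enzyme, by −0.34 ± 0.07 (log2, SE). SREBF1, the factor of fatty acid synthesis, changed by −0.49 ± 0.10.

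Genes of lysosomes and autophagy were called lower in 8 of 47 (17%, beside 8.69% of all genes) and higher in 2 (4.26%, beside 8.06%). ULK1, the kinase that starts autophagy, measured 55.3, 59.0 and 52.6 CPM at 5% CO2 and 40.7, 41.0 and 48.9 CPM at 10% CO2, and with LPS 54.9, 50.6 and 51.4 CPM against 34.8, 31.9 and 35.1 CPM. Every library at 10% CO2 was below every one at 5% CO2, by 1.40-fold (adjusted p = 0.000244), and GABARAPL1, a protein of the autophagosome membrane, fell by 1.65-fold. The list's count of 8 was 3 without 10% CO2 replicate 2 or 10% CO2 with LPS replicate 2. It was 4 without 5% CO2 replicate 1 or 2, 5% CO2 with LPS replicate 1 or 10% CO2 with LPS replicate 3, and 5 without 5% CO2 with LPS replicate 2 or 3.

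Immediate early genes, which cells transcribe within minutes of a stimulus, moved down. Of 42 tested 12 fell (28.6%, beside 8.69% of all genes) and none rose (beside 8.06%). The median log2 change was −0.22 (−0.21 without LPS, −0.24 with LPS). ZFP36, encoding tristetraprolin, which destabilises cytokine mRNAs, measured 82.6, 92 and 72.1 CPM at 5% CO2 and 55.9, 54.9 and 68.7 CPM at 10% CO2, and with LPS 152, 169 and 135 CPM against 103, 111 and 106 CPM. The groups were separated in both states, by 1.40-fold (adjusted p = 0.000567). FOSB, a partner in the AP-1 factor, fell by 1.72-fold, PLK2, a kinase, by 1.47-fold, and JUND, another AP-1 member, by 1.51-fold. JUND read 133, 135 and 89.1 CPM at 5% CO2 and 75, 62.9 and 89.5 CPM at 10% CO2, so that replicate 3 of the 2 groups met without LPS, and 256 to 389 CPM against 204 to 250 CPM with LPS. FOS (−0.10 ± 0.10) and JUN (−0.32 ± 0.14) were not called. Without 10% CO2 replicate 2, 7 of the 42 were called lower, and leaving out each other library gave between 9 and 17.

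In cAMP signalling adenylyl cyclases make cAMP and phosphodiesterases remove it, and the median log2 change of its 30 genes was −0.16. Of these genes 8 were called lower (26.7%, beside 8.69% of all genes) and 1 higher (3.33%, beside 8.06%). Both kinds of enzyme were among them: ADCY4, given above, and PDE4A, a phosphodiesterase, which fell by 1.53-fold and measured 25.9 to 33.1 CPM against 17.9 to 21.4 CPM without LPS and 22.1 to 32.3 CPM against 12.4 to 17.3 CPM with LPS. The count was 5 without 5% CO2 replicate 1, 5% CO2 with LPS replicate 1 or 10% CO2 with LPS replicate 3. Targets of p53 and BCL2 family genes were called lower in 10 of 37 (27%) and higher in 1 (2.7%), but their median was −0.02. DDB2, of nucleotide excision repair, fell by 1.61-fold and CCNG1, a cyclin induced by p53, by 1.32-fold, while MDM2, the ligase that degrades p53, was not called (−0.13 ± 0.07, adjusted p = 0.171). Without 5% CO2 with LPS replicate 2 or 10% CO2 replicate 2, 6 of the 37 were called lower.

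Inflammatory genes did not share a direction in the average. Of 66 targets of NF-kappaB tested 7 rose and 5 fell, beside 8.06% and 8.69% of all genes, and the list's median was −0.13 without LPS and 0.19 with LPS. The 7 became 3 without 5% CO2 replicate 2 or 10% CO2 replicate 2, 4 without 5% CO2 replicate 3 or 10% CO2 with LPS replicate 2, and 11 without 5% CO2 with LPS replicate 3, and the 5 became 9 without 5% CO2 replicate 3. Among those that rose was GCH1, which starts tetrahydrobiopterin synthesis: 3.93 to 5.51 CPM against 5.21 to 5.58 CPM without LPS, and 76.4 to 112 CPM against 137 to 181 CPM with LPS. Its libraries overlapped in resting cells and were separated with LPS (averaged log2 0.42 ± 0.11, SE; adjusted p of the difference between states 0.72). SERPINB2, an inhibitor of plasminogen activators, rose by 1.81-fold, with 5.15, 5.79 and 7.89 CPM against 10.8, 15.4 and 10.9 CPM without LPS and 1.40, 1.91 and 1.57 CPM against 1.77, 3.23 and 3.05 CPM with LPS. NLRP3, the sensor of an inflammasome, fell by 1.34-fold and measured 114 to 137 CPM against 98 to 111 CPM without LPS and 75.3 to 107 CPM against 54.3 to 66.5 CPM with LPS. RELA, the activating subunit of NF-kappaB, changed by −0.27 ± 0.07, and BCL3, a nuclear regulator of that factor, by −0.51 ± 0.11 (log2, SE). For BCL3 the change was −0.85 without LPS and −0.16 with LPS, where its libraries overlapped (adjusted p = 0.545; of the difference between states 0.598).

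TNF, IL1B and CXCL8, cytokine genes known as targets of NF-kappaB, were not called. TNF measured 31.2, 31.9 and 21.1 CPM at 5% CO2 and 14.9, 8.52 and 20.8 CPM at 10% CO2 in resting cells, where 10% CO2 libraries were the lower 3, and 1007 to 1110 CPM against 919 to 1074 CPM with LPS, where they overlapped (averaged log2 −0.51 ± 0.18, SE; adjusted p = 0.0796). IL1B stood at 3274 to 4555 CPM at 5% CO2 and 3617 to 4695 CPM at 10% CO2 with LPS, an averaged change of −0.01 ± 0.11. CXCL8 changed by −0.33 ± 0.14 (adjusted p = 0.147) and NFKBIA, the inhibitor that NF-kappaB induces, by −0.17 ± 0.08 (adjusted p = 0.143). IL6 had 0 counts in all 6 libraries without LPS and 0.775 to 2.90 CPM with LPS, so no averaged fold is given.

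Interferon-stimulated genes were called lower in 9 of 59 (15.3%) and higher in 3 (5.08%), with a median of −0.08. MX1, an antiviral GTPase, measured 38.9, 45.6 and 45.6 CPM at 5% CO2 and 25.6, 33 and 31.2 CPM at 10% CO2, and with LPS 42.3, 40 and 43.5 CPM against 27.9, 32.6 and 41.2 CPM. The groups were separated without LPS and overlapped with LPS through 1 library, and the fall was 1.34-fold (adjusted p = 0.00472). IRF1, a transcription factor, fell by 1.3-fold, while GBP5, a guanylate-binding protein, rose (0.36 ± 0.09, log2, SE; 0.11 without and 0.60 with LPS), a call not kept after correction for GC content. Of 45 genes of monocyte and myeloid identity 5 fell (11.1%, beside 8.69% of all genes) and 1 rose (2.22%, beside 8.06%). CEBPA, a factor of myeloid differentiation, fell by 1.5-fold (log2 −0.29 without and −0.88 with LPS), ITGAX, encoding CD11c, by 1.32-fold, and CSF1R, the receptor for macrophage colony-stimulating factor, changed by −0.49 ± 0.12, again a call not kept after that correction. In these bulk samples fewer cells of a state and less RNA per cell cannot be told apart. The 5 became 3 without 5% CO2 replicate 1, 5% CO2 with LPS replicate 2, or replicate 2 of the 10% CO2 groups with or without LPS, or 10% CO2 with LPS replicate 3.

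**Figure D4:**
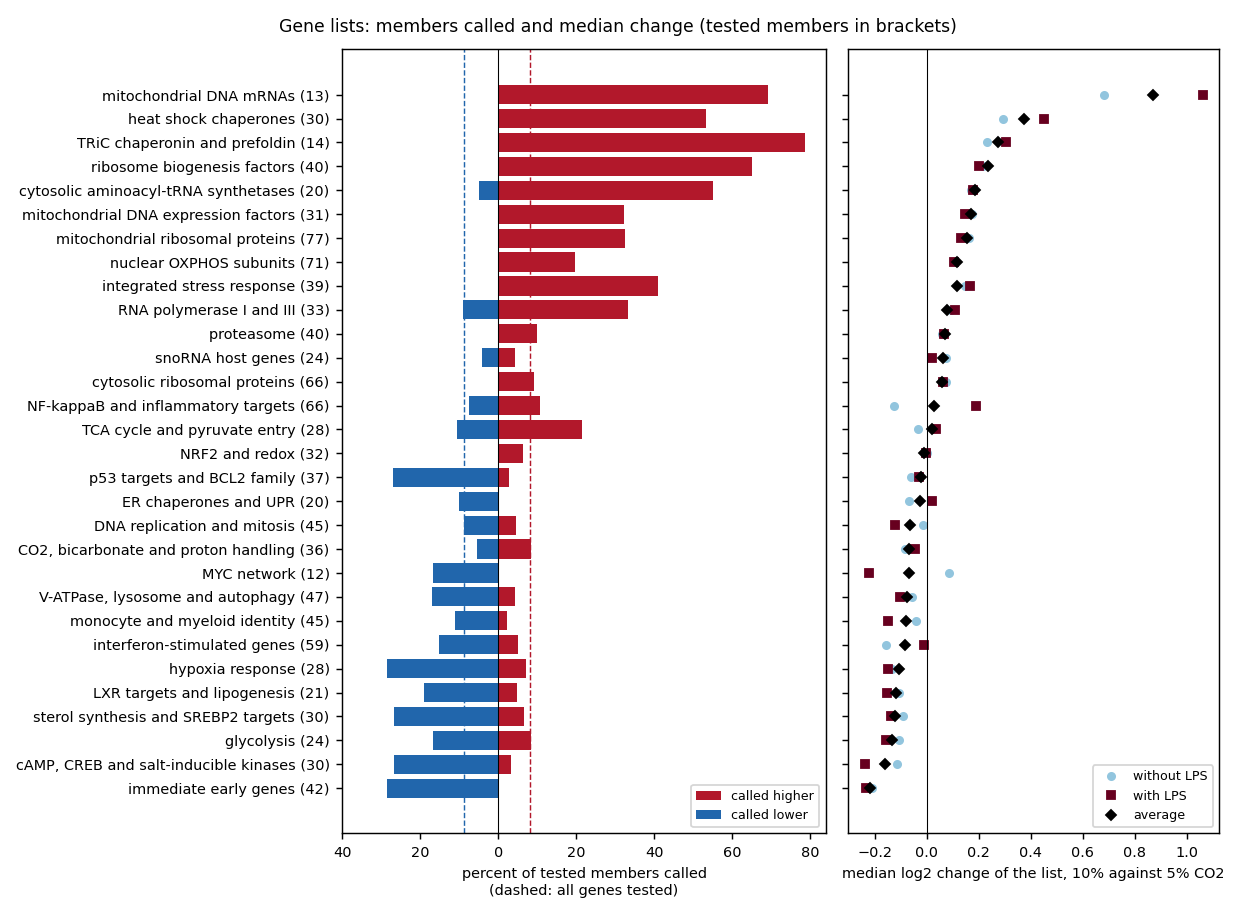
Median log2 change from 5% to 10% CO2 of each gene list, without LPS, with LPS and averaged, beside the percent of its tested genes called higher or lower; dashed lines mark the percentages over all genes tested. The mitochondrial DNA mRNAs (0.87), heat shock chaperones (0.37) and chaperonin genes (0.27) lie farthest to the right, and the immediate early genes (−0.22) farthest to the left among lists that do not mark another cell type.

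Genes that rose and genes that fell differed in base composition. The median exonic GC content was 44.2% among genes called higher, 54.2% among genes called lower and 48.7% over all genes tested, and 3.03% of higher genes against 12% of lower genes lay on the GC-rich chromosome 19 (7.57% over all). With the genes split into 10 bins of equal size by GC, in the bin with the least GC (26.8% to 39.0%) 12.8% were called higher and 3.29% lower, and in the bin with the most GC 3.90% were called higher and 14.1% lower. The median log2 change of these bins was 0.07 and −0.07 in the average, 0.01 and 0.00 without LPS, and 0.14 and −0.14 with LPS. The libraries of the 10% CO2 with LPS group had GC-rich genes low relative to GC-poor genes (−0.25 to −0.22), against −0.03 to 0.10 at 5% CO2 with LPS. Without LPS the CO2 groups overlapped in this measure (−0.11 to 0.36 at 5% CO2 and −0.20 to 0.44 at 10% CO2). After a correction for GC in each library 3324 genes were called, and 2421 of the 2748 calls were shared with the same direction. Among genes described above, the calls of CSF1R, GBP5, RASGRP1 and TNIP3 were not kept after the correction. Why single calls moved with it was not tested. With that correction 18 of 30 heat shock chaperones, 30 of 40 ribosome biogenesis factors, 17 of 39 integrated stress response genes and 9 of 13 mitochondrial mRNAs were called higher, and none of these 4 lists held a lower call. Other counts moved with the correction: interferon-stimulated genes called lower went from 9 to 14, proteasome genes called higher from 4 to 9, glycolytic genes called lower from 4 to 2, myeloid genes called lower from 5 to 3 and MYC network genes called higher from 0 to 3, and the chaperonin list gained 1 lower call.

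**Figure D5:**
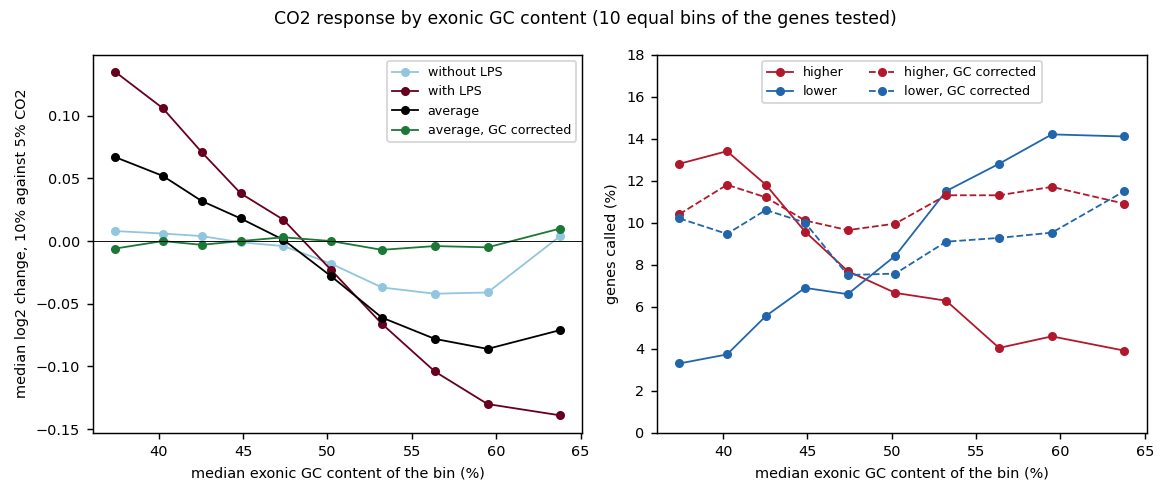
Genes tested in 10 equal bins of exonic GC content (x axis, median percent): median log2 change from 5% to 10% CO2 in each LPS state and in the average, before and after correction for GC (left), and percent of genes called higher or lower before and after correction for GC (right). Higher calls fall from 12.8% to 3.90% and lower calls climb from 3.29% to 14.1% from the first to the last bin, and after correction the first bin has 10.4% and 10.2% and the last 10.9% and 11.5%.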

How the data were processed

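The tables hold raw read counts per Ensembl gene, as deposited by the authors; per the submitters' processing notes, the tools were Trimmomatic 0.36, STAR 2.5.2b and featureCounts of Subread 1.5.2 with GRCh38. For the annotation release, strand setting and multi-mapping reads the choice is not given in the sources used here, so overlapping and antisense genes cannot be told apart. Poly(A) RNA of 12 libraries in 4 groups of 3 was grouped by the sample titles. Of 57500 identifiers 56410 had a symbol, covering 99.53% of counts.

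Counts were filtered with filterByExpr by group, scaled by TMM and fitted with 4 group means in edgeR 4.0.16 (R 4.3.3; robust quasi-likelihood F test, Benjamini-Hochberg adjustment, called at adjusted p below 0.05); the common biological coefficient of variation was 10.7%. CPM are counts over the TMM-scaled library size. Exceptions are the ranges of the myeloid markers, the sums of other cell types' markers and the floor, which use the library size without TMM. The fit was also run on simulated counts with known changes, the same spread for all genes and no GC trend. That run cannot speak for the GC trend or the replicate differences of these data. Alternatives used limma 3.58.1 and DESeq2 1.42.0, other scalings and filters, an additive model, a replicate block, a GC correction and the omission of each library. The floor of 3 counts covers counting error only.

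Members and the 36 gene lists were chosen with earlier results of these data known, so a list's direction is not independent evidence, and lists are described by counts and medians without a test. Genes named by rule are the 12 largest changes each way among called genes of at least 5 CPM whose libraries separate in both LPS states, the 6 smallest p-values each way, the 3 called members with the smallest p of each list, the mitochondrial mRNAs and 5 cytokine-related genes; all others were chosen after their values were seen. Some genes that the rule picks are not reported here. Exonic GC and length come from the exon coordinates deposited with the counts, on the GRCh38 sequence, and start-site windows from RefSeq (GRCh38.p14).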

Additional observations from a re-analysis of the deposited data

Results flagged for a closer look

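The CO2 response of 4 genes differed between LPS states in edgeR's test of the difference itself, and each fell in resting cells and rose in stimulated cells. For CD44 the log2 change with LPS exceeded that without LPS by 1.17 ± 0.19 (SE; adjusted p = 0.046), with 102 to 131 CPM at 5% CO2 against 71.4 to 92.8 CPM at 10% CO2 in resting cells and 203 to 254 CPM against 302 to 408 CPM with LPS. For HIVEP2 the difference was 1.17 ± 0.14 (adjusted p = 0.00255). For PDGFA it was 1.33 ± 0.22 (adjusted p = 0.046), with 4.91 to 6.10 CPM against 3.09 to 3.67 CPM in resting cells and 30.4 to 41.9 CPM against 47.4 to 61.1 CPM with LPS. For STARD4 it was 0.92 ± 0.15 (adjusted p = 0.046), with 17.9 to 19.8 CPM against 14.1 to 14.7 CPM and 63.0 to 72.7 CPM against 83.4 to 111 CPM. In all 4 genes the CO2 groups were separated in both states, in opposite directions.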

How the results depend on the processing

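The count of 2748 genes called by edgeR lay within 1.5 times under other scalings (2742 and 2780), without mitochondrial genes (2777), without a low-count filter (2646), with at least 5 CPM (2617), by DESeq2 (3069) and limma-voom (2663), in the additive model (2740) and after GC correction (3324). It was 1063 at an adjusted p under 0.01. Leaving out single libraries gave 1664 to 3005. No call shared with the main test changed direction under these alternatives, and 1393 calls were kept without any 1 library. Replicate numbers were not taken to pair the libraries, since the labels do not say what they mark. Correlations of deviations ran from −0.136 to 0.29 between same-numbered libraries and from −0.286 to 0.211 between others. Between replicate 1 libraries all were positive (0.1 to 0.29), and whether they share a batch was not tested. With a replicate block 3520 genes were called, and 4652 with a replicate block and the GC correction together. In that last fit endoplasmic reticulum chaperones had 5 higher and 6 lower calls of 20, cytosolic ribosomal proteins 17 higher and myeloid genes 11 lower.

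The difference in mitochondrial share was 1.06 to 1.53 percentage points without single libraries; with a replicate block it was 1.32 with an exact permutation p = 0.1, the smallest its 20 arrangements allow. Averages near 0 changed sign. IL1B was 0.005 without mitochondrial genes, 0.008 in the additive model and −0.064 to 0.073 without single libraries. PDGFA was 0.159 in the additive model, 0.048 after GC correction, 0.048 with the replicate block as well, and −0.071 to 0.056 without single libraries. STARD4 was −0.038 after GC correction, −0.042 with the replicate block as well and −0.004 to 0.1 without single libraries, and CD44 was −0.001 to 0.121. The cause was not tested.

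With 3 libraries a group and a median standard error of 0.10 on the log2 scale, changes of about that size can be missed. The same holds for changes in genes near the floor of 3 counts at this depth. A gene that was not called may still have changed.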

Other observations

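Lists that the account above leaves out are given beside the 8.06% of all genes called higher and 8.69% called lower. Of 28 genes of the citric acid cycle and pyruvate entry 6 rose (21.4%) and 3 fell (10.7%), and of 24 glycolytic genes 2 rose (8.33%) and 4 fell (16.7%). Of 32 genes of the NRF2 and redox list 2 rose and none fell, and of 40 proteasome genes 4 rose and none fell. Of 45 genes of DNA replication and mitosis 2 rose and 4 fell. Of 21 LXR targets and lipogenic genes 1 rose and 4 fell (19%), of 12 genes of the MYC network 2 fell (16.7%), and of 24 host genes of small nucleolar RNAs 1 rose and 1 fell. Leaving out single libraries moved the lower calls to between 1 and 8 for glycolysis and 0 and 5 for replication, to 2 for the LXR list without 5% CO2 replicate 1 or replicate 2 of either 10% CO2 group, and the higher calls to between 1 and 7 for the proteasome.

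In the 250 bases before the start, the letters TCACGTGA, an element of lysosomal genes that contains the E-box CACGTG, stood in 0.634% of windows of genes called higher, 1.69% of those called lower and 1.45% of all. The NF-kappaB motif stood in 10.2%, 15.1% and 12% in the same order, where the windows' median GC content was 63.2%, 66.4% and 64.4%. The E-box alone stood in 9.15%, 7.24% and 8.11%, and the CCAAT box in 33.9%, 31.7% and 32.6%. A match describes letters on either strand and not binding.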
